A study of Mus musculus with 6 samples.

Results

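The genes of oxidative phosphorylation encode the protein complexes with which mitochondria make ATP, and they were followed here in the spinal cord of mice that carry a mutant SOD1 transgene. They were chosen by symbol: probe sets annotated to exactly 1 gene whose symbol begins with Nduf, Sdha, Sdhb, Sdhc, Sdhd, Uqcr, Cox4 to Cox8 or Atp5, or is Cyc1 or Cycs. This rule found 75 of 8251 genes with such a probe set, from 103 probe sets, and the probe set with the highest mean intensity stands for its gene. The 75 genes comprise 29 of complex I, 4 of complex II, 8 of complex III, cytochrome c, 15 of complex IV and 14 of complex V. The remaining 4 (Ndufaf1, Ndufaf4, Sdhaf1 and Sdhaf2) encode assembly factors, which share a prefix with the subunits but are not subunits. The label of a set of subunits thus holds neither for these nor for cytochrome c, a mobile carrier. Cox7a2l, which joins complexes III and IV, is counted with complex IV by its symbol.

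Complexes I and II take electrons from NADH and succinate and pass them to ubiquinone. Complex III hands them on to cytochrome c, and complex IV reduces oxygen with them. Complexes I, III and IV pump protons across the inner membrane, and complex V, the ATP synthase, uses the return flow to make ATP. In the spinal cord this pathway supplies most of the ATP of neurons, including motor neurons with their long axons, and mitochondrial damage in motor neurons is a known feature of mice with mutant SOD1. Part of the subunits of complexes I, III, IV and V is encoded by mitochondrial DNA, and the symbols of those genes lie outside the rule.

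Whole spinal cord was profiled on 6 single-colour Affymetrix oligonucleotide arrays, 1 for each of 3 genotypes at 2 ages. The G93A-SOD1 mice carry SOD1 with the G93A substitution known from familial amyotrophic lateral sclerosis (strain B6SJL-G93A-SOD1H at 110 days and B6SJL-G93A-SOD1 at 75 days), and the submitters describe them as paralysed in part at 110 days and still without symptoms at 75 days. The WT-SOD1 mice carry the wild-type SOD1 transgene (on B6SJL at 75 days, with no strain given at 110 days) and stayed healthy, and the nontransgenic mice are B6SJL. Poly(A) RNA of 4 cords went onto each array, which was hybridised once, so each genotype and age is 1 pool and no group has a replicate. The transgene's promoter and the sex of the mice are not given in the sources used here. In whole cord, fewer cells of a type and less RNA per cell cannot be told apart.

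The WT-SOD1 and nontransgenic arrays are called disease-free. A G93A-SOD1 array was set against the mean of both disease-free arrays of its age by limma over 6737 probe sets. Its p-values, adjusted by Benjamini-Hochberg, rest on the spread between disease-free arrays of different genotype, and the single array of G93A-SOD1 cord is taken to have that same spread. Differences are in log2 units of intensity with their standard error (SE), and a call is an adjusted p under 0.05. The WT-SOD1 array at 110 days and the nontransgenic array at 75 days stand apart by their bacterial spike-in controls (means 463 and 353, against 200.4 to 257 on the other 4 arrays), so each disease-free pair holds 1 such array. Median intensities lay between 77.6 and 80.9, and the ratio of 3′ to 5′ Gapdh signal, a sign of RNA quality, was 1.30 and 1.49 in G93A-SOD1 cord at 110 and 75 days, 1.14 and 1.27 in WT-SOD1 cord and 1.23 and 1.08 in nontransgenic cord. Of the 75 genes, 64 were tested, and all 64 were brighter than the filter of 79.7 on all 6 arrays. Where a gene's intensities are given in pairs, the value at 110 days precedes that at 75 days.

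At 110 days most oxidative phosphorylation genes read a little lower in G93A-SOD1 cord than in disease-free cord, and none passed the test. The difference was below 0 for 49 of 64 genes, against 55.1% of all tested probe sets, with a median of -0.17 (0.89 times the disease-free level) against -0.02 over all probe sets. No gene was called higher (background 1.38%) or lower (background 0.134%), and the smallest adjusted p was 0.218, for Ndufab1 (limma, Benjamini-Hochberg). At an unadjusted p under 0.05, 7 genes were lower (background 5.61%) and 0 higher (background 4.68%): Ndufaf1, Ndufab1, Ndufb6, Ndufb10, Atp5j, Cycs and Cox6a1. For 43 genes the G93A-SOD1 array at 110 days was below both disease-free arrays of its age (background 35.3%). It was below all 4 disease-free arrays for 29 genes (background 27.0%) and above all 4 for Sdhc and Sdhaf1 (background 16.9%). Leaving out the WT-SOD1 array at 110 days leaves 1 disease-free array of that age, and the median was then -0.14. The fit with a spike-in term called 2 of the 64 genes, Ndufaf1 and Sdha, both lower. That fit called 227 of all 6737 probe sets in either direction.

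At 75 days the shift was smaller. Differences were below 0 for 42 of 64 genes, against 57.5% of all probe sets, with a median of -0.08 against -0.04 over all probe sets. No gene was called (background 0.0% in either direction), and the smallest adjusted p was 0.422, for Uqcrc2 (limma). At an unadjusted p under 0.05, Uqcrc2, Uqcrb, Ndufaf1 and Atp5a1 were lower (4 genes, background 6.52%) and Ndufc1 was higher (1 gene, background 3.34%). For 36 genes the G93A-SOD1 array at 75 days was below both disease-free arrays of its age (background 46.8%). It was below all 4 disease-free arrays for 31 genes (background 34.7%) and above all 4 for 10 (background 23.8%). Both G93A-SOD1 arrays were below all 4 disease-free arrays for 21 genes (32.8%, background 15.6%), and both were above them for Sdhc alone (background 6.23%). Without the WT-SOD1 or the nontransgenic array at 110 days, the median at 75 days stayed at -0.08.

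**Figure D1:**
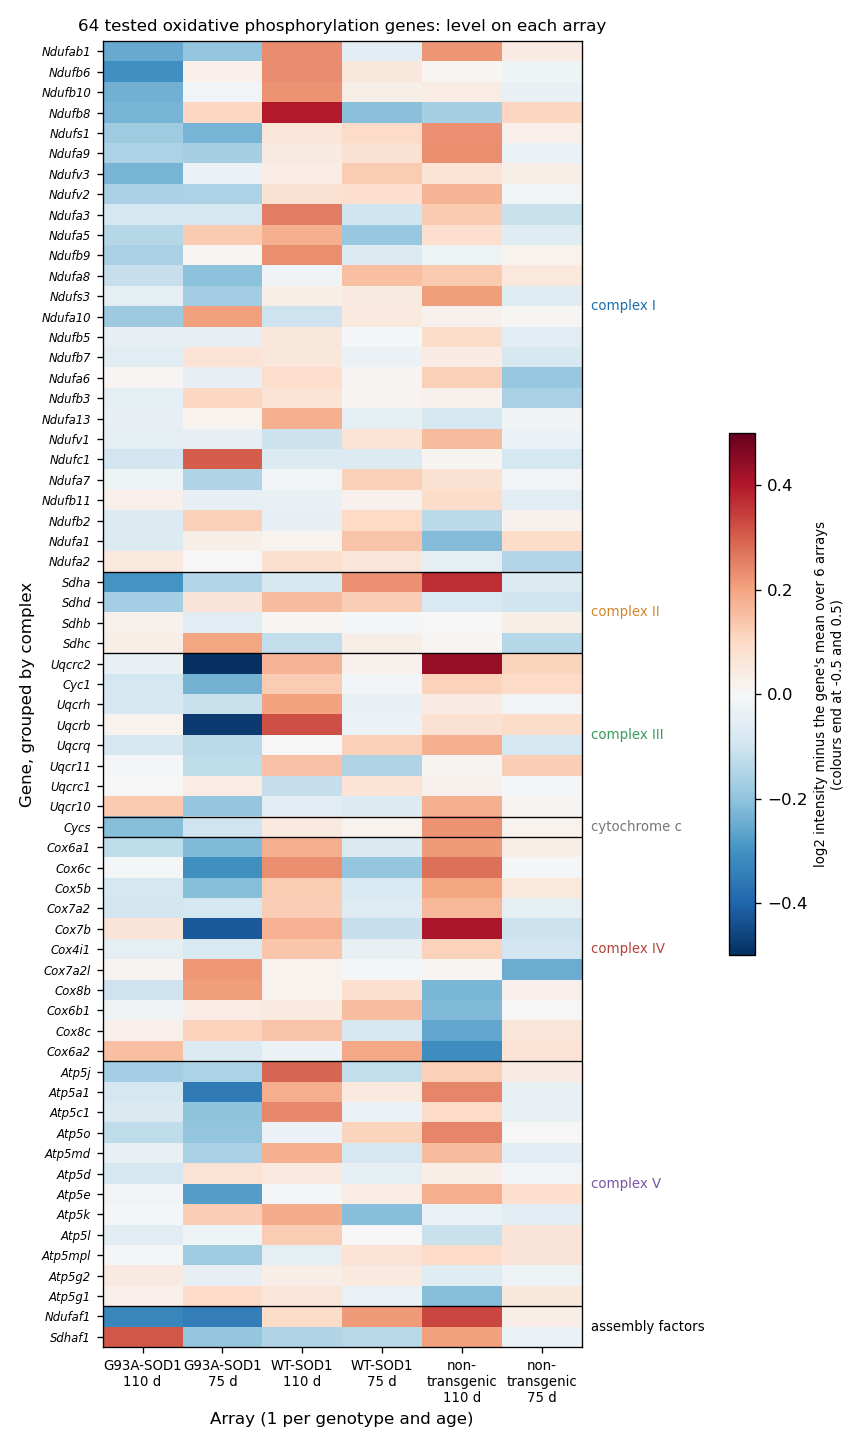
Level of the 64 tested oxidative phosphorylation genes on each array, as log2 intensity minus the gene's mean over the 6 arrays (blue lower, red higher; colours end at -0.5 and 0.5). Columns are the G93A-SOD1, WT-SOD1 and nontransgenic arrays at 110 and 75 days, and rows are genes grouped by complex; the column medians are -0.06 and -0.07 for G93A-SOD1, 0.06 and 0.01 for WT-SOD1, and 0.09 and -0.01 for nontransgenic cord.

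The map of levels by array shows how far the arrays of 1 genotype also differ from each other. Relative to each gene's mean over the 6 arrays, the median over the 64 genes was -0.06 and -0.07 in G93A-SOD1 cord at 110 and 75 days, 0.06 and 0.01 in WT-SOD1 cord, and 0.09 and -0.01 in nontransgenic cord. The G93A-SOD1 arrays thus lay lowest, next to the nontransgenic array at 75 days, and the disease-free arrays at 110 days lay highest. The change of the G93A-SOD1 difference between ages (110 minus 75 days) had a median of -0.07 and was below 0 for 43 of 64 genes, against 49.2% of all probe sets. None of these changes was called (background 0.386% higher and 0.0297% lower), and at an unadjusted p under 0.05 limma found 2 genes lower (background 2.05%) and 0 higher (background 4.19%).

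**Figure D2:**
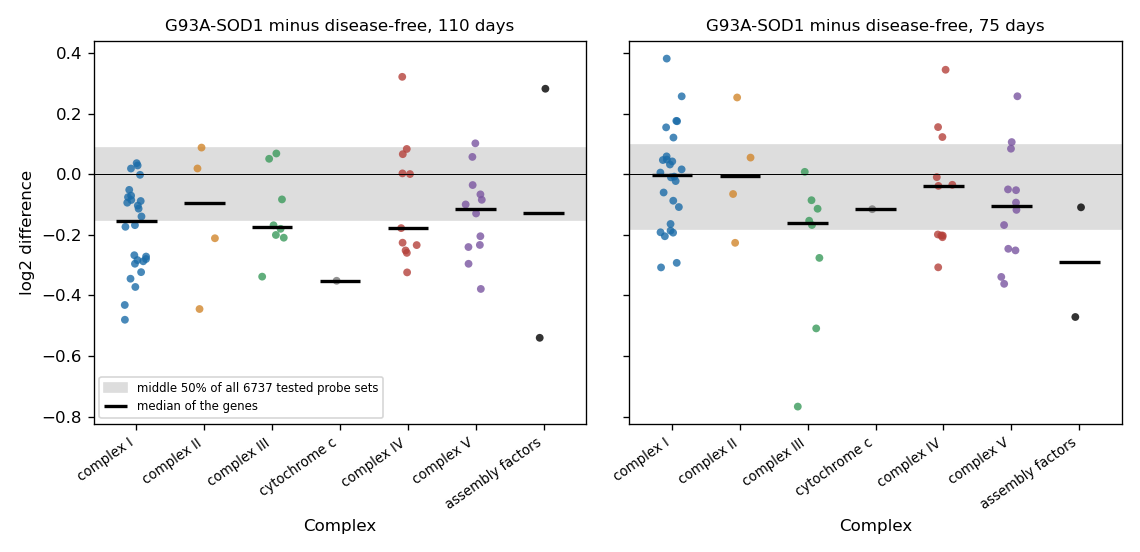
Log2 difference of G93A-SOD1 from disease-free cord for each of the 64 tested genes (points) by complex, at 110 days (left) and 75 days (right). The line is the median of a complex and the grey band the middle 50% of all 6737 tested probe sets; medians at 110 days run from -0.18 in complex IV to -0.10 in complex II for the 5 complexes, with cytochrome c at -0.35.

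The complexes differed little at 110 days and more at 75 days. At 110 days the median difference was -0.15 in complex I, -0.10 in complex II, -0.17 in complex III, -0.18 in complex IV and -0.11 in complex V. At 75 days it was -0.16 in complex III, -0.11 in complex V, -0.04 in complex IV, -0.01 in complex II and -0.00 in complex I. Complex I had 23 of 26 genes below 0 at 110 days and 13 of 26 at 75 days, while complex III had 6 of 8 and 7 of 8. The medians of complexes I and II at 75 days turn positive under quantile normalization (0.08 for each) and cyclic loess (0.08 and 0.07). Differences between complexes were not tested.

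The size of these medians depended on how the arrays were scaled. At 110 days the median over the 64 genes was -0.11 after quantile normalization and -0.08 after cyclic loess, with 46 and 42 genes below 0, against 50.1% and 47.0% of all probe sets. At 75 days both gave -0.01, with 34 and 33 genes below 0. Leaving out both arrays with higher spike-in levels, an alternative chosen after seeing the data, gave -0.14 at 110 days and -0.07 at 75 days. The oxidative phosphorylation genes are bright: 48 of the 64 had a mean intensity of at least 295. The 1849 other tested probe sets at or above that intensity had a median difference of -0.06 at 110 days and -0.08 at 75 days, against -0.19 and -0.08 for these 48 genes. At 75 days the bright genes of the pathway thus had nearly the same median as other bright probe sets.

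**Figure D3:**
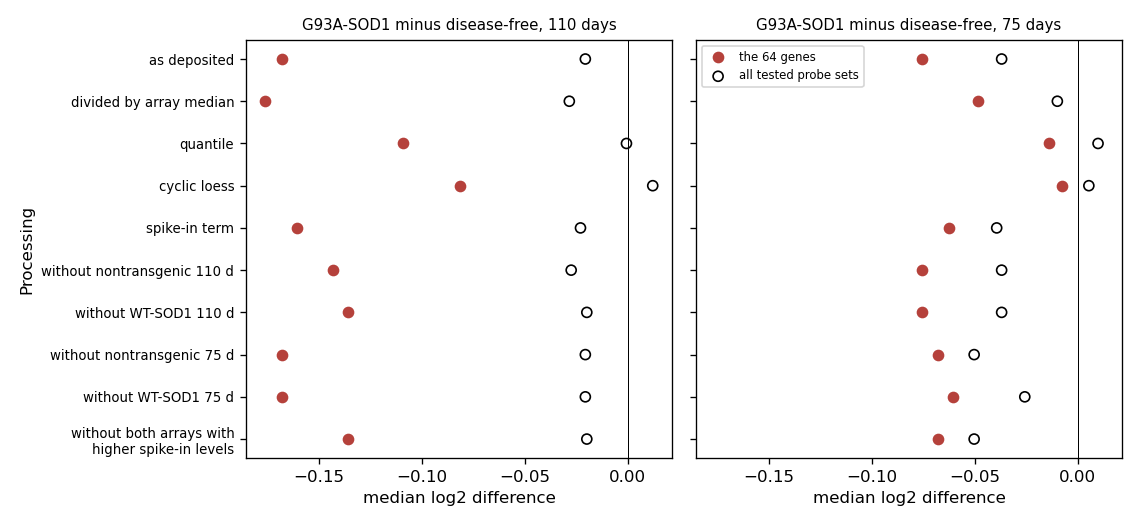
Median log2 difference of G93A-SOD1 from disease-free cord under 10 ways of processing, at 110 days (left) and 75 days (right). Filled points are the 64 oxidative phosphorylation genes and open points all tested probe sets; at 110 days the filled points run from -0.18 to -0.08, and at 75 days from -0.08 to -0.01.

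Nuclear genes of the respiratory chain are known targets of a few transcription factors: NRF-1, GABP (also called NRF-2), YY1 and the oestrogen-related receptors (ERR). Promoters are shown for 4 of the 7 genes at an unadjusted p under 0.05 at 110 days, each with letters of such motifs. They are given as 250 bases upstream of the RefSeq transcript start in the build GRCm38.p6, 5′ to 3′ on the gene's strand. Capitals mark a match to CGCATGCG (NRF-1 core), CCGGAAG (GABP) or AAGATGGC (YY1) on either strand. All 4 genes lie on the minus strand: Cycs at chr6:50566570-50566819, Atp5j at chr16:84834977-84835226, Cox6a1 at chr5:115348959-115349208 and Ndufaf1 at chr2:119662835-119663084.
Cycs: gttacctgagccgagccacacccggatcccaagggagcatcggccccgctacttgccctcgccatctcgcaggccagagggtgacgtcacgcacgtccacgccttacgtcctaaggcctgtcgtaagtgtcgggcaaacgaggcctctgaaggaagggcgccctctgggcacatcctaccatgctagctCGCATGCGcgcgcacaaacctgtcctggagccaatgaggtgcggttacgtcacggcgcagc
Atp5j: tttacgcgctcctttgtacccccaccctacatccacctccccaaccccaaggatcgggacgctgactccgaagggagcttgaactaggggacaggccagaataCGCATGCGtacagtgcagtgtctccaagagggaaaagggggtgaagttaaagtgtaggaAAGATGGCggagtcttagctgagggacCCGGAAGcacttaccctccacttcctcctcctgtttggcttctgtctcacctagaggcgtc
Cox6a1: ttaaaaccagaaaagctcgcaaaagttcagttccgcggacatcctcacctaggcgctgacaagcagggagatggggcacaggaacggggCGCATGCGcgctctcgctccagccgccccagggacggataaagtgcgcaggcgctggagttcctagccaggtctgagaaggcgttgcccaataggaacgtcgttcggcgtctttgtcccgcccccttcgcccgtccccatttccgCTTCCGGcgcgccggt
Ndufaf1: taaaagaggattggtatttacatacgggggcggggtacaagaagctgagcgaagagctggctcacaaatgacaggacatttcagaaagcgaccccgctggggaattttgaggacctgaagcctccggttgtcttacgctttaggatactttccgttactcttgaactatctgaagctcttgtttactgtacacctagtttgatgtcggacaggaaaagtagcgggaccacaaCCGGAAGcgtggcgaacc
The table holds another start of Atp5j, whose promoter has none of these letters, and the positions for Atp5j refer to the start shown. The NRF-1 letters begin 61 bases before the start of Cycs, 147 before that of Atp5j and 161 before that of Cox6a1. The GABP letters begin 61 bases before the start of Atp5j, 18 before that of Ndufaf1 and, on the other strand, 16 before that of Cox6a1, and the YY1 letters 88 before that of Atp5j. Of the other 3 genes, not shown, Ndufb6 also has GABP letters, 232 bases before its start. The promoters listed for Ndufab1 and Ndufb10 hold none of these letters.

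RefSeq promoters were found for 61 of the 75 genes (66 promoters). In windows of 300 bases, from 250 before to 50 after the start, the NRF-1 core was in 10 of the 66 (15.2%), against 1.87% of all 32851 mouse promoters in the table. GABP letters were in 18 (27.3%, against 8.86%), YY1 letters in 8 (12.1%, against 2.75%), and the ERR letters TCAAGGTCA in 1, that of Sdhd (1.52%, against 0.423%). These motifs do not overlap in letters, and matches are descriptions of sequence, not binding sites. The 9 tested genes with the NRF-1 core had a median difference of -0.08 at 110 days, against -0.14 for 41 without it, and the 16 with GABP letters had -0.14, against -0.13 for 34 without. The 5 tested genes with YY1 letters had -0.30, against -0.11 for 45 without.

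The single gene of cytochrome c, the mobile carrier between complexes III and IV, showed the pattern of the pathway. Cycs had 111 and 120.2 in G93A-SOD1 cord, 133 and 130.3 in WT-SOD1 cord and 150.4 and 130.0 in nontransgenic cord. Both G93A-SOD1 arrays were below all 4 disease-free arrays. The difference at 110 days was -0.35 (SE 0.14), and at 75 days -0.12 (SE 0.14) (limma).

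Complex I is the largest complex of the chain. Its core subunits carry the redox groups and its accessory subunits surround them. The 4 core genes tested here (Ndufs1, Ndufs3, Ndufv1 and Ndufv2, a split made after the values were seen) had a median difference of -0.23 at 110 days and -0.18 at 75 days, and all 4 were below 0 at both ages. The 22 accessory genes had -0.13 at 110 days and 0.02 at 75 days, with 19 and 9 of 22 below 0. Ndufs1, the largest core subunit, which binds iron-sulphur clusters, had 479.9 and 463 in G93A-SOD1 cord, 566 and 581 in WT-SOD1 cord and 637 and 553 in nontransgenic cord. Both G93A-SOD1 arrays were below all 4 disease-free arrays, with differences of -0.32 (SE 0.14) and -0.29 (SE 0.14) at 110 and 75 days. Ndufv1, which binds NADH and is among the 2 brightest complex I genes, had 1692 and 1702 in G93A-SOD1 cord, 1627 and 1837 in WT-SOD1 cord and 1954 and 1714 in nontransgenic cord. Its groups overlapped, since the WT-SOD1 array at 110 days was the lowest.

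Ndufab1 encodes the mitochondrial acyl carrier protein, which also serves fatty acid synthesis in mitochondria. It had 368 and 382 in G93A-SOD1 cord, 516 and 422 in WT-SOD1 cord and 510.0 and 451 in nontransgenic cord. In G93A-SOD1 cord it was below all disease-free arrays at both ages. The difference was -0.48 (SE 0.13) at 110 days, or 0.717-fold, and -0.19 (SE 0.13) at 75 days, and neither passed the test.

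Ndufb6 and Ndufb10, accessory subunits of the membrane arm, were low at 110 days. Ndufb6 had 688 and 865 in G93A-SOD1 cord, 1004 and 886 in WT-SOD1 cord and 857 and 838 in nontransgenic cord. Ndufb10 had 485 and 567 in G93A-SOD1 cord, 669 and 584 in WT-SOD1 cord and 588 and 559 in nontransgenic cord. For both genes the G93A-SOD1 array at 110 days was below all others and the one at 75 days lay among the disease-free arrays. The differences at 110 days were -0.43 (SE 0.15) for Ndufb6 and -0.37 (SE 0.14) for Ndufb10, against 0.01 (SE 0.15) and -0.01 (SE 0.14) at 75 days. The changes between ages were -0.44 (SE 0.21) and -0.36 (SE 0.20).

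Other accessory genes were lowest at 75 days. Ndufa8, on the intermembrane side, had 266 and 249.8 in G93A-SOD1 cord, 285 and 319.6 in WT-SOD1 cord and 315 and 299 in nontransgenic cord. Ndufa7, of the matrix arm, had 1108 and 1012 in G93A-SOD1 cord, 1113 and 1221 in WT-SOD1 cord and 1186 and 1114 in nontransgenic cord. For both genes the G93A-SOD1 array at 75 days was the lowest, and the one at 110 days was next. The differences at 75 days were -0.31 (SE 0.14) for Ndufa8 and -0.20 (SE 0.14) for Ndufa7.

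Ndufc1, a small membrane subunit, was the highest at 75 days of all 64 genes. It had 817 and 1079 in G93A-SOD1 cord, 834 and 834 in WT-SOD1 cord and 883 and 822 in nontransgenic cord. G93A-SOD1 cord at 75 days was above all 5 other arrays, which lay close together, and the one at 110 days was the lowest. The difference was 0.38 (SE 0.13) at 75 days, or 1.30-fold, and -0.07 (SE 0.13) at 110 days. Ndufa5, an accessory subunit of the matrix arm, had the largest change between ages of the 64 genes, -0.53 (SE 0.20) (adjusted p = 0.716, limma). It had 1043 and 1260.2 in G93A-SOD1 cord, 1301 and 1008 in WT-SOD1 cord and 1219 and 1104 in nontransgenic cord. In WT-SOD1 and nontransgenic cord the array at 110 days was higher than that at 75 days, and in G93A-SOD1 cord it was lower.

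For Ndufb5 and Ndufa2 the G93A-SOD1 arrays lay within the range of the disease-free ones. Ndufb5, a membrane-arm subunit and the other of the 2 brightest complex I genes, had 1899 and 1895 in G93A-SOD1 cord, 2028 and 1936 in WT-SOD1 cord and 2081 and 1876 in nontransgenic cord. Ndufa2, of the matrix arm, had 433 and 417 in G93A-SOD1 cord, 441 and 435 in WT-SOD1 cord and 405 and 377 in nontransgenic cord, and its difference at 110 days, 0.04 (SE 0.15), was the highest in complex I. For Ndufa2 both G93A-SOD1 arrays lay below both WT-SOD1 arrays and above both nontransgenic ones.

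**Figure D4:**
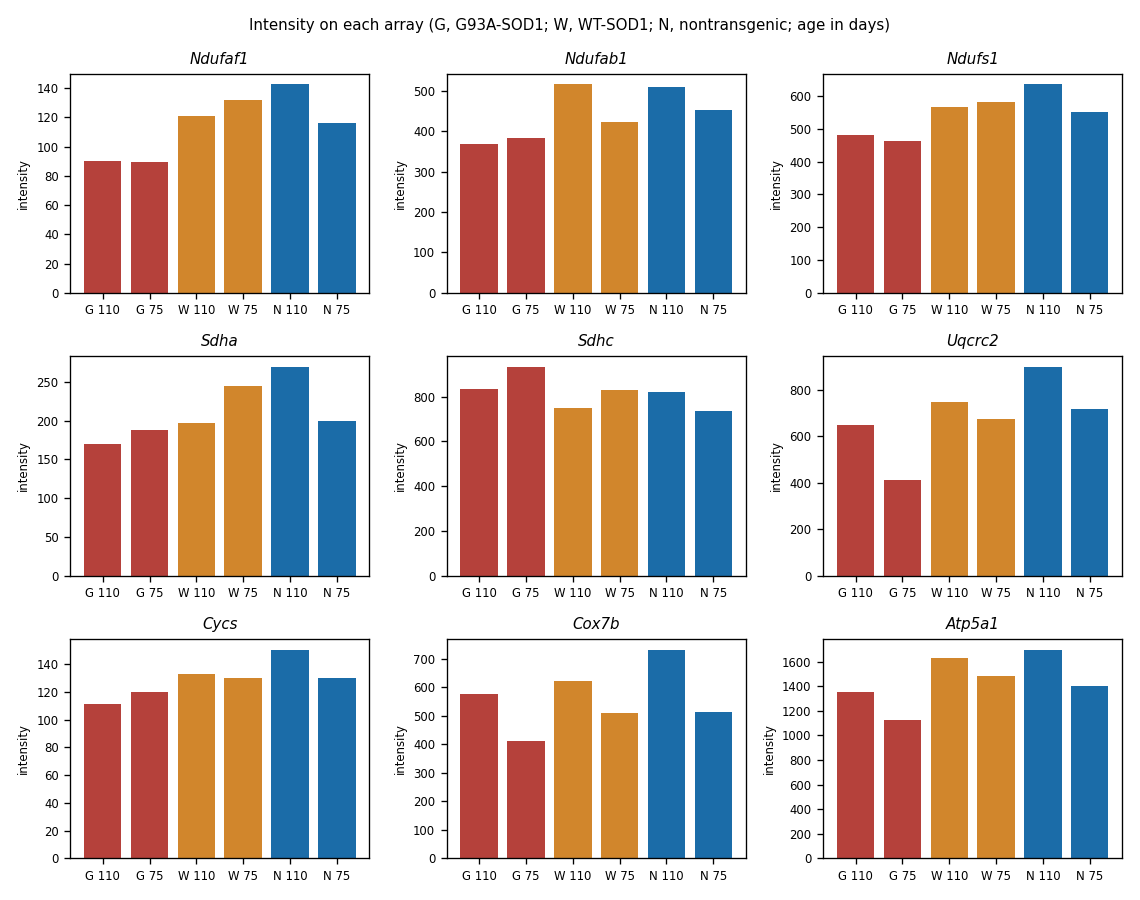
Intensity of 9 oxidative phosphorylation genes on each array, chosen after their values were seen. Bars from left to right are the G93A-SOD1 (G), WT-SOD1 (W) and nontransgenic (N) arrays at 110 and 75 days, with 1 array per bar and an axis from 0; Ndufaf1, at 90.4 and 89.2 in G93A-SOD1 cord, lies between 116 and 143 on the disease-free arrays, while Sdhc is highest on the G93A-SOD1 arrays.

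Complex II, succinate dehydrogenase, is also an enzyme of the TCA cycle, and its 4 genes had differences of both signs. Sdha, the flavoprotein that oxidises succinate, had 169.7 and 189 in G93A-SOD1 cord, 198 and 245 in WT-SOD1 cord and 269.7 and 199 in nontransgenic cord. The lowest values were those of G93A-SOD1 cord. The difference at 110 days was -0.44 (SE 0.22), with 269.7 on the nontransgenic and 198 on the WT-SOD1 array it was set against, so the disease-free arrays were themselves far apart. At 75 days it was -0.23 (SE 0.22). Sdhb, the iron-sulphur subunit, had 487 and 462 in G93A-SOD1 cord, 482 and 478 in WT-SOD1 cord and 479 and 489.9 in nontransgenic cord. All 6 arrays lay within a narrow range.

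The membrane anchors of complex II had opposite signs at 110 days. Sdhc had 832 and 933 in G93A-SOD1 cord, 747 and 831 in WT-SOD1 cord and 819.6 and 737 in nontransgenic cord. The G93A-SOD1 arrays were the highest and the next highest, by a narrow margin at 110 days. The differences were 0.09 (SE 0.15) at 110 days and 0.25 (SE 0.15) at 75 days. Sdhd had 514 and 605 in G93A-SOD1 cord, 646 and 629 in WT-SOD1 cord and 548 and 539 in nontransgenic cord. The G93A-SOD1 array at 110 days was the lowest, by -0.21 (SE 0.17), and both WT-SOD1 arrays were the highest.

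In complex III the low values were those of G93A-SOD1 cord at 75 days, where 7 of 8 genes were below 0. Uqcrc2, a core protein on the matrix side, had 648 and 409 in G93A-SOD1 cord, 747 and 674 in WT-SOD1 cord and 898 and 718 in nontransgenic cord. At 75 days G93A-SOD1 cord was far below the other 5 arrays, and that at 110 days was next. The difference at 75 days, -0.77 (SE 0.16) or 0.588-fold, was the largest of the 64 genes at either age (adjusted p = 0.422, limma). At 110 days it was -0.34 (SE 0.16). Uqcrb, which lies near the ubiquinone site, had 301 and 214 in G93A-SOD1 cord, 372 and 292 in WT-SOD1 cord and 314 and 317 in nontransgenic cord. G93A-SOD1 cord at 75 days was again the lowest, by -0.51 (SE 0.16). The G93A-SOD1 array at 110 days was below both disease-free arrays of its age but above the WT-SOD1 array at 75 days. The probe sets of both genes end in _f_at, a suffix for probes that can bind transcripts of related sequence.

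Cyc1, the cytochrome c1 subunit that passes electrons to cytochrome c, had 1676 and 1513 in G93A-SOD1 cord, 1947 and 1765 in WT-SOD1 cord and 1928 and 1902 in nontransgenic cord. G93A-SOD1 cord was below all disease-free arrays at both ages, with differences of -0.21 (SE 0.13) and -0.28 (SE 0.13) at 110 and 75 days. A dimmer probe set of Cyc1 gave 0.07 and 0.33. Uqcrh, the hinge protein that helps cytochrome c to dock, had 953 and 933 in G93A-SOD1 cord, 1157 and 982 in WT-SOD1 cord and 1036 and 999 in nontransgenic cord. It too was lowest on both G93A-SOD1 arrays, with a difference of -0.20 (SE 0.14) at 110 days.

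The remaining genes of complex III are the other core protein and small subunits. Uqcrq, a small subunit and with Cyc1 the brightest of complex III, had 1727 and 1659.7 in G93A-SOD1 cord, 1826 and 1983 in WT-SOD1 cord and 2063 and 1718 in nontransgenic cord. Uqcr10, another small subunit, had 871 and 696 in G93A-SOD1 cord, 765 and 759.6 in WT-SOD1 cord and 902 and 804 in nontransgenic cord. Uqcrc1, the other core protein, had 1008 and 1033 in G93A-SOD1 cord, 927 and 1054 in WT-SOD1 cord and 1022 and 1002 in nontransgenic cord. Uqcrq and Uqcr10 were lowest on the G93A-SOD1 array at 75 days, and for Uqcrc1 both G93A-SOD1 arrays lay among the disease-free ones, unlike its partner Uqcrc2. The last gene, Uqcr11, had differences of -0.08 at 110 days and -0.11 at 75 days.

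Complex IV, cytochrome c oxidase, has nuclear subunits in tissue-specific forms. Cox6a1, the form found in most tissues, had 2101 and 1970.2 in G93A-SOD1 cord, 2598 and 2188 in WT-SOD1 cord and 2662 and 2348 in nontransgenic cord and was the brightest gene of the complex. Both G93A-SOD1 arrays were below all 4 disease-free arrays, with differences of -0.32 (SE 0.13) and -0.20 (SE 0.13) at 110 and 75 days. Cox6a2, the form of heart and skeletal muscle, had 141 and 121 in G93A-SOD1 cord, 124 and 145 in WT-SOD1 cord and 102 and 133 in nontransgenic cord. Its difference at 110 days, 0.32 (SE 0.16) or 1.25-fold, was the highest of the 64 genes, and at 75 days it was -0.20 (SE 0.16). The nontransgenic array at 110 days was the lowest for Cox6a2, and the WT-SOD1 array at 75 days the highest.

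Subunits 7a and 8 also have tissue forms. Cox7a2, the form of most tissues, had 1163 and 1165 in G93A-SOD1 cord, 1348 and 1186 in WT-SOD1 cord and 1388 and 1201 in nontransgenic cord. G93A-SOD1 cord was lowest at both ages, with -0.23 (SE 0.13) at 110 days and -0.03 (SE 0.13) at 75 days. Its muscle counterpart Cox7a1 was at the floor of 31 on all 6 arrays and was not tested. Cox8b, the muscle form of subunit 8, had 148 and 183 in G93A-SOD1 cord, 161 and 168 in WT-SOD1 cord and 136 and 162 in nontransgenic cord, with the highest value on the G93A-SOD1 array at 75 days. The suffix of this probe set marks possible cross-hybridisation, and the other probe set of Cox8b was at the floor on all 6 arrays. Cox8a, the form of most tissues, was at the floor on all 6 arrays, so its probe set gives no level here.

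Cox7a2l, a relative of Cox7a2 that joins complexes III and IV into supercomplexes, had 451 and 518 in G93A-SOD1 cord, 451 and 444 in WT-SOD1 cord and 449.9 and 375 in nontransgenic cord. The G93A-SOD1 array at 75 days was the highest, by 0.34 (SE 0.15), and the nontransgenic array at 75 days the lowest. Cox6b1, which lies where the dimer's partners meet, had 102 and 107 in G93A-SOD1 cord, 107 and 116 in WT-SOD1 cord and 89.0 and 104 in nontransgenic cord. Its testis counterpart Cox6b2 was not tested and had 56.4 and 45.4 in G93A-SOD1 cord, 52.5 and 74.3 in WT-SOD1 cord and 67.6 and 54.3 in nontransgenic cord. For Cox6b1 both WT-SOD1 arrays were above all others, and the G93A-SOD1 and nontransgenic arrays overlapped. For Cox6b2 all groups overlapped. Cox4i1, the main form of subunit 4, had 84.0 and 82.5 in G93A-SOD1 cord, 95.8 and 84.8 in WT-SOD1 cord and 94.2 and 81.4 in nontransgenic cord, close to the filter, with a difference of -0.18 (SE 0.13) at 110 days, and its other tested probe set gave 0.12.

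Cox5b, Cox6c and Cox7b, nuclear subunits with no tissue form among these genes, were low in G93A-SOD1 cord at 75 days. Cox5b had 778 and 714 in G93A-SOD1 cord, 904 and 785 in WT-SOD1 cord and 949.9 and 859 in nontransgenic cord. Cox6c had 1351 and 1096 in G93A-SOD1 cord, 1594 and 1186 in WT-SOD1 cord and 1641 and 1352 in nontransgenic cord. Cox7b had 578 and 413 in G93A-SOD1 cord, 623 and 509 in WT-SOD1 cord and 732 and 512 in nontransgenic cord. All 3 genes were lowest on the G93A-SOD1 array at 75 days, and at 110 days the G93A-SOD1 array was below both disease-free arrays of its age. The differences at 110 days were -0.25 (SE 0.14) for Cox5b, -0.26 (SE 0.14) for Cox6c and -0.23 (SE 0.15) for Cox7b, and at 75 days -0.20 (SE 0.14), -0.21 (SE 0.14) and -0.31 (SE 0.15). The probe set of Cox6c ends in _f_at, and the gene's other tested probe set gave 0.03 at 110 days and -0.26 at 75 days. Cox8c, a testis form, had differences of 0.08 and 0.12 at 110 and 75 days.

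Complex V is a rotary motor with a catalytic head, a stalk and a ring in the membrane. Atp5a1, the alpha subunit of the head, had 1354 and 1122 in G93A-SOD1 cord, 1627 and 1485 in WT-SOD1 cord and 1697 and 1400.0 in nontransgenic cord. G93A-SOD1 cord had the 2 lowest values. The differences were -0.30 (SE 0.13) at 110 days and -0.36 (SE 0.13) at 75 days. Atp5c1, the gamma subunit that turns inside the head, had 776 and 710.2 in G93A-SOD1 cord, 965 and 800.4 in WT-SOD1 cord and 871 and 795 in nontransgenic cord, and both G93A-SOD1 arrays were again the lowest. Its 2 tested probe sets gave -0.24 and -0.29 at 110 days.

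Among the stalk genes, Atp5j, Atp5o and Atp5e read low in G93A-SOD1 cord, and the brightest probe set of Atp5d read high at 75 days. Atp5j, coupling factor 6, had 665 and 671 in G93A-SOD1 cord, 918 and 688 in WT-SOD1 cord and 815 and 772 in nontransgenic cord. Atp5o, which ties the outer stalk to the head, had 859 and 819.8 in G93A-SOD1 cord, 919 and 1014 in WT-SOD1 cord and 1110.5 and 939 in nontransgenic cord. For both genes G93A-SOD1 cord was below all 4 disease-free arrays at both ages. The differences at 110 days were -0.38 (SE 0.15) for Atp5j and -0.23 (SE 0.16) for Atp5o, and at 75 days -0.12 (SE 0.15) and -0.25 (SE 0.16). Atp5e, the epsilon subunit of the central stalk, had 571 and 476 in G93A-SOD1 cord, 573 and 593 in WT-SOD1 cord and 654 and 612 in nontransgenic cord, with the lowest value on the G93A-SOD1 array at 75 days, by -0.34 (SE 0.14), and the next on the one at 110 days. Atp5d, the delta subunit of the central stalk, had 279 and 312 in G93A-SOD1 cord, 307 and 287 in WT-SOD1 cord and 304 and 294 in nontransgenic cord. At 75 days the G93A-SOD1 array was above all 4 disease-free arrays, by 0.11 (SE 0.13) over those of its age, and at 110 days it was below all 4, with a difference of -0.13 (SE 0.13). The 4 tested probe sets of Atp5d differed in sign, from -0.13 to 0.05 at 110 days and from -0.01 to 0.11 at 75 days.

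Genes of the membrane part had differences of both signs. Atp5md, a small subunit and the brightest of complex V, had 1923 and 1762 in G93A-SOD1 cord, 2230.2 and 1861 in WT-SOD1 cord and 2203 and 1899 in nontransgenic cord. Atp5l, subunit g, had 1619 and 1661 in G93A-SOD1 cord, 1842 and 1685 in WT-SOD1 cord and 1560.2 and 1761 in nontransgenic cord. Atp5k, subunit e, had 156 and 171 in G93A-SOD1 cord, 178 and 135 in WT-SOD1 cord and 153 and 151 in nontransgenic cord. At 110 days the G93A-SOD1 array was below both disease-free arrays for Atp5md, and between them for Atp5l and Atp5k. At 75 days Atp5k had the highest difference of the complex, 0.26 (SE 0.16). Atp5g1, which encodes the ring subunit c, had 232 and 243 in G93A-SOD1 cord, 237 and 222 in WT-SOD1 cord and 196 and 237 in nontransgenic cord and the highest difference at 110 days, 0.10 (SE 0.16), where the nontransgenic array alone was low.

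Among the assembly factors, Ndufaf1, needed to build the membrane arm of complex I, was lower in G93A-SOD1 cord at both ages. It had 90.4 and 89.2 in G93A-SOD1 cord, 121 and 132 in WT-SOD1 cord and 143 and 116 in nontransgenic cord. All 4 disease-free arrays were above both G93A-SOD1 arrays by a wide margin. The difference was -0.54 (SE 0.16) at 110 days, or 0.688-fold, with an adjusted p of 0.25, and -0.47 (SE 0.16) at 75 days, with an adjusted p of 0.495 (limma). Sdhaf1, which helps to equip Sdhb with its iron-sulphur clusters, had 234 and 165 in G93A-SOD1 cord, 170.1 and 172 in WT-SOD1 cord and 218 and 185 in nontransgenic cord. The G93A-SOD1 array at 110 days was the highest and that at 75 days the lowest. Ndufaf4 and Sdhaf2 were not tested.

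**Figure D5:**
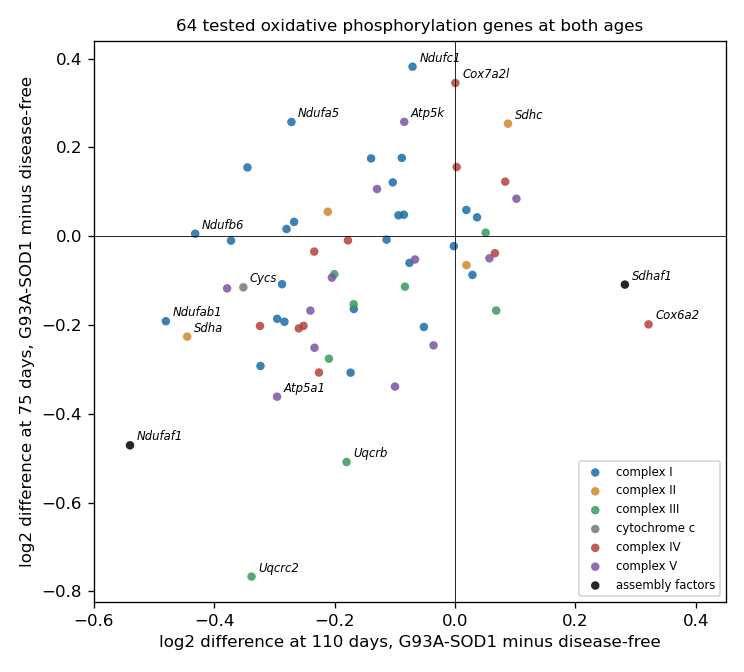
Log2 difference of G93A-SOD1 from disease-free cord at 110 days (horizontal axis) and at 75 days (vertical axis) for the 64 tested oxidative phosphorylation genes, coloured by complex. The labelled genes lie at the edges: Ndufaf1 at -0.54 and -0.47, Uqcrc2 at -0.34 and -0.77, Ndufc1 at -0.07 and 0.38, and Cox6a2 at 0.32 and -0.20.

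With age, oxidative phosphorylation genes read slightly higher in disease-free cord. The difference of the disease-free arrays at 110 days from those at 75 days was above 0 for 47 of 64 genes, against 48.8% of all probe sets, with a median of 0.09 against -0.00. The median is 0.035 after quantile normalization and 0.053 after cyclic loess. It was 0.10 for the 48 genes with a mean intensity of at least 295 and -0.02 for the 16 dimmer ones, against 0.03 for the 1849 other probe sets at or above that intensity. Complex IV had the highest median, 0.17, followed by complex I with 0.09, complex III with 0.09, complex V with 0.06 and complex II with 0.01; that of complex II is negative after quantile normalization (-0.04) and cyclic loess (-0.02). No gene was called (background 0.0148% higher, 0.0% lower), and the smallest adjusted p was 0.998 (limma). At an unadjusted p under 0.05, Cox7b, Cox6c and Ndufa3 were higher (3 genes, background 2.55%) and 0 were lower (background 0.549%). The differences were 0.40 (SE 0.12) for Cox7b, 0.35 (SE 0.12) for Cox6c and 0.30 (SE 0.11) for Ndufa3, an accessory subunit of complex I. The other tested probe set gave -0.18 for Cox6c and -0.05 for Ndufa3, of the opposite sign.

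Both disease-free arrays at 110 days were above both at 75 days for 26 of 64 genes (40.6%, background 15.2%). They were below them for 4 (background 14.0%): Cox6a2, Cox8b, Ndufa1 and Ndufb2. For Ndufb2 the age difference was -0.15, and its other tested probe set gave 0.16, of the opposite sign. Of the 11 complex IV genes, 7 were among the 26: Cox4i1, Cox5b, Cox6a1, Cox6c, Cox7a2, Cox7a2l and Cox7b. The other tested probe set of Cox4i1 (-0.16) and of Cox6c (-0.18) had the opposite sign. The muscle forms Cox6a2 and Cox8b, by contrast, were lower at 110 days, by -0.30 (SE 0.13) and -0.16 (SE 0.13). For Cox8b this rests on a probe set that may cross-hybridise, and its other probe set was at the floor. In G93A-SOD1 cord the array at 110 days was higher than that at 75 days by a median of 0.00, against 0.05 in WT-SOD1 cord and 0.11 in nontransgenic cord, which are values of single pairs of arrays. The array at 110 days was higher in all 3 genotypes for 16 genes (background 12.8%).

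The wild-type transgene came with no common shift. The difference of WT-SOD1 from nontransgenic cord, fitted over both ages, had a median of 0.00 and was above 0 for 34 of 64 genes, against 51.2% of all probe sets; the median is -0.01 when each array is divided by its median. No gene was called (background 0.0891% higher, 0.0148% lower), and at an unadjusted p under 0.05 limma found 0 genes higher (background 0.282%) and 0 lower (background 0.891%). This fit has 1 residual degree of freedom and 1 pooled spread. Both WT-SOD1 arrays were above both nontransgenic arrays for 5 genes (background 11.1%): Atp5g2, Cox6b1, Ndufa2, Ndufb6 and Sdhd. They were below both for 3 (background 9.53%): Atp5e, Sdhaf1 and Uqcr10. The largest difference was that of Sdhd, 0.23 (SE 0.19). The arrays with higher spike-in levels are WT-SOD1 at 110 days and nontransgenic at 75 days, and both were above the other 4 for 5 genes (background 8.70%), Atp5l, Ndufb8, Ndufb9, Uqcr11 and Uqcrb.

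The 11 genes that were not tested are Ndufa12, Ndufc2, Ndufs4, Ndufaf4, Sdhaf2, Cox5a, Cox6b2, Cox7a1, Cox8a, Atp5j2 and Atp5pb. Cox7a1, Cox8a and Atp5j2 were at the floor on all 6 arrays and 2 others on some. Of the 64 tested genes, 19 rest on probe sets whose suffix marks possible cross-hybridisation. Among the 45 others the median difference was -0.17 at 110 days, with 37 below 0, and -0.09 at 75 days, with 29 below 0. Several genes have more than 1 tested probe set, 8 in all, and at 110 days all tested probe sets of a gene had the same sign for 1 of these 8, Atp5c1, at 75 days for 5 and for age for 3. For Ndufv2, a core subunit of complex I, they gave -0.28 and 0.05 at 110 days, so a single probe set is a weak measure of a difference of this size.

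Across the 6 arrays many of the genes varied together. The correlation of a gene's log2 intensities with the median of the other 63 genes had a median of 0.56 over the 64 genes; it was over 0.8 for 19 genes and below 0 for 16. Ndufv2 (0.96), Ndufab1 (0.94) and Cox6a1 (0.94) were the most alike, and Atp5g1 (-0.66) the least. Of 5135 tested genes outside the pathway, those most like its median were Herpud1 (r = 0.993), Rtn1 (0.988), Sucla2 (0.985), Mff (0.983) and BC005624 (0.981), all over 6 arrays that share genotype, age and scaling. Sucla2, a subunit of succinyl-CoA ligase of the TCA cycle, had 707 and 714 in G93A-SOD1 cord, 880.2 and 821 in WT-SOD1 cord and 971 and 802 in nontransgenic cord. Rtn1, a reticulon of neurons, had 1617 and 1573 in G93A-SOD1 cord, 2483 and 2232 in WT-SOD1 cord and 2716 and 2071 in nontransgenic cord. For both genes the G93A-SOD1 arrays were the lowest and the nontransgenic array at 110 days the highest.

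Lists of other mitochondrial genes had medians at 110 days between -0.37 and -0.06, and no gene of these lists was called in either direction at either age. Of all tested probe sets, 55.1% were below 0 at 110 days, the share to set beside the counts that follow. Of the TCA cycle genes, 14 of 16 were below 0 at 110 days, with medians of -0.19 at 110 days and -0.18 at 75 days; the lowest was Pdhb, a subunit of pyruvate dehydrogenase, at -0.51, and the highest Suclg2, of succinyl-CoA ligase, at 0.46. Of assembly genes outside the rule, 6 of 6 were below 0 at 110 days (median -0.16), from Lrpprc at -0.21 to Tmem70 at -0.02. Of genes for protein import and proteases, 11 of 16 were below 0 (median -0.11), from the chaperonin Hspe1 at -0.37 to the import receptor Tomm20 at 0.19. Mitochondrial ribosomal protein genes had a median of -0.07, with 17 of 24 below 0, from Mrps21 at -0.35 to Mrpl33 at 0.22. Carrier and porin genes had a median of -0.06, with 6 of 9 below 0, from Slc25a4, the ADP/ATP carrier of heart, muscle and brain, at -0.24 to Slc25a20 at 0.23. The 4 tested genes of mitochondrial dynamics were all below 0 (median -0.27), with the fission gene Dnm1l lowest at -0.35 and Mfn1 highest at -0.14. Among 3 tested regulators, Esrra, which encodes the alpha oestrogen-related receptor, was the lowest at -0.60 (adjusted p = 0.185, limma) and Polrmt, the mitochondrial RNA polymerase, the highest at 0.04. Esrra had 333 and 407 in G93A-SOD1 cord, 459.9 and 446 in WT-SOD1 cord and 552 and 430.3 in nontransgenic cord.

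Markers of cell types differed between the same arrays. Of all tested probe sets at 110 days, 1.38% were called higher and 0.134% lower, and 55.1% were below 0. At 110 days 11 of 12 tested microglia and macrophage markers rose (limma, adjusted p under 0.05), with a median difference of 2.15 (from 0.99 for Aif1 to 2.84 for Lyz2; the others were Cd68, Tyrobp, C1qa, C1qb, C1qc, Csf1r, Ctss, Cd52 and Mpeg1), and their summed intensity was 9349 and 2347 in G93A-SOD1 cord at 110 and 75 days, against 2043 to 2573 on the disease-free arrays. The 9 astrocyte markers had a median difference of 0.25 at 110 days, and 3 were below 0. Gfap (1.25), Fabp7 (1.46) and Clu (0.84) rose at 110 days (limma, adjusted p under 0.05). The sums over the 9 markers were 15229 and 10741 in G93A-SOD1 cord, against 9949 to 11226. Of 13 neuron markers, 12 were below 0 at 110 days (median -0.39) and 1, the neurofilament gene Nefm (-0.82), fell; the sums were 10016 and 11457 in G93A-SOD1 cord, against 12370.0 to 14132 in disease-free cord. Chat and Isl1, markers of motor neurons, were not among the tested genes. The 7 oligodendrocyte markers had a median of -0.22 at 110 days (from Mal at -0.29 to Cldn11 at 0.14), and the 3 blood markers -0.36 (from Hbb-b2 at -0.37 to Alas2 at -0.26). The 7 tested markers of cerebellar neurons, which should not be abundant in cord, had a median of -1.42 at 110 days (from Gabra6 at -2.63 to Pcp2 at -0.30) and -0.86 at 75 days, with sums of 3239.5 and 3607 in G93A-SOD1 cord against 4441 to 6291 on the disease-free arrays. The 8 skeletal muscle markers had 0.11 at 110 days (from Pvalb at -0.36 to Acta1 at 1.44), and 3 were below 0. Pvalb is on the list of cerebellar neurons as well. Acta1, muscle actin, had 169.8 and 89.0 in G93A-SOD1 cord, 74.1 and 448 in WT-SOD1 cord and 52.5 and 126 in nontransgenic cord. Acta1 and Cox6a2 were both highest in WT-SOD1 cord at 75 days and lowest in nontransgenic cord at 110 days. The sum over the 8 muscle markers was highest in WT-SOD1 cord at 75 days (4428) but lowest in G93A-SOD1 cord at 110 days (3116). The part of these cell types in the values of the oxidative phosphorylation genes was not tested.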

How the data were processed

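Spinal cord poly(A) RNA was hybridised to 6 Affymetrix arrays. The authors deposited a linear intensity for each probe set on each array; the summary of probes and any scaling are not given in the sources used here. Array medians lay within 0.06 on the log2 scale, so the intensities were used as deposited. Of 12488 rows, 66 are controls and were left out of the tests. Values under the 25th percentile, 31, were raised to it before log2, and tests were run on the 6737 probe sets that passed the pooled median of 79.7 on 1 array or more. Of 12422 probe sets, 10833 have 1 symbol in the platform annotation, 396 several and 1193 none here; all 75 genes matched the RefSeq gene table by Entrez identifier. Probe sets with several symbols, 10 with symbols of the pathway, were left out.

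limma 3.58.1 in R 4.3.3 (lmFit, eBayes, Benjamini-Hochberg) fitted 4 means: the G93A-SOD1 array of each age and the 2 disease-free arrays of each age, with 2 residual degrees of freedom. WT-SOD1 was set against nontransgenic cord in a fit of the 4 disease-free arrays that included age. The number of arrays limits the precision, and p-values do not measure the spread between animals. The fits were tested on simulated data. The genes, lists and tests were chosen with earlier results of these data known. Values on all arrays are given for the genes of complex II, Cyc1, Cycs, the tissue forms of complex IV and, in complexes I, III, IV and V, the 2 brightest genes and at each age the 3 with the lowest and the 1 with the highest difference; Ndufaf1, Sdhaf1, Ndufa5 and Atp5d were chosen after their values were seen. From each other list the called genes, or the lowest and highest, are named. Alternatives changed the floor, the filter, the scaling, the probe sets per gene, a spike-in term and the arrays left out.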

Additional observations from a re-analysis of the deposited data

How the results depend on the processing

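No paired analysis was possible because each genotype and age has 1 array and the labels give no replicate numbers. For G93A-SOD1 at 110 days, cyclic loess normalization moved the median difference to -0.081, from -0.17 as deposited, and the spike-in term raised the number of called genes from 0 to 2. When single disease-free arrays were left out, the number of called genes ranged from 0 to 2 at 110 days and from 0 to 1 at 75 days, and the median from -0.17 to -0.14 and from -0.08 to -0.06. For WT-SOD1 against nontransgenic cord, the median turned to -0.014 when each array was divided by its median. With an array left out, or with the spike-in term, that comparison has no residual degree of freedom, and medians alone were computed. The cause of these shifts was not tested. At 75 days the median was -0.05 with each array divided by its median, -0.014 after quantile normalization and -0.0074 after cyclic loess, against -0.08 as deposited. The age median was 0.035 and 0.053 after quantile normalization and cyclic loess, against 0.09. At 110 days quantile normalization gave -0.11. The median of WT-SOD1 against nontransgenic cord, 0.0035 as deposited, ranged up to 0.044 with an array left out. The median change between ages stayed within 1.5 times its value of -0.07. Calls over all probe sets varied more. At 110 days there were 102 as deposited, 66 with the floor at the 40th percentile, 42 without a filter, 227 with the spike-in term, and 148 to 591 with an array left out. At 75 days there were 0, against 50 without a filter and 13 to 116 with an array left out. For the change between ages there were 28, against 3 with the higher floor, 76 without a filter, 16 with a filter on the mean, 2 with median scaling, 69 with the spike-in term and 51 to 135 with an array left out. For age there was 1, against 0 without a filter, 3 with the spike-in term and 2 to 17 with an array left out. For WT-SOD1 there were 7, against 0 with the higher floor, without a filter, after median scaling and after quantile normalization. Without replicates, differences of the size seen for most of these genes could not be separated from the spread between arrays.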
